A study of Mus musculus with 3 samples.

Results

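Cluster 22 is a group of 327 cells that the study's clustering set apart among 26008 kept cells of the mouse limbus and iridocorneal angle, the drainage corner of the eye. The study called it B and T cells. Its members are the kept cells with cluster number 22 in the study's cell tables, matched by barcode to the UMI counts of each library. A UMI is a molecular tag that lets each captured RNA molecule be counted once. The 3 libraries, which are control replicate 1, control replicate 2 and *Angpt1*ΔNC, gave 89, 133 and 105 of them. No barcode of the cluster was shared between libraries. T cells alone would name only part of it: 164 cells had a UMI of a CD3 gene, 98 others had B cell genes and 65 had neither, so it is called cluster 22 here.

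Both control libraries, one called replicate 1 and the other replicate 2 in accession order, were droplet single-cell RNA libraries from *Angpt1* flox/flox mice, and the *Angpt1*ΔNC library was from *Angpt1* flox/flox mice that also carried *Wnt1*-Cre, which deletes the floxed gene in the neural crest and its descendants. All mice were 6 weeks old and albino from an ICR cross, and each library pooled eyes of several animals of both sexes after enzymatic dissociation. The controls went against the description of mixed sexes: *Xist*, which female cells express, was found in 0 of 989 and 0 of 1012 of their epithelial cells, against 524 of 911 in *Angpt1*ΔNC. There were 2 control libraries and 1 *Angpt1*ΔNC library, so every genotype test had 1 residual degree of freedom and took the lone library to vary like the controls. Lymphocytes come from blood-forming cells, outside the neural crest, and the deleted gene was close to undetected in them: *Angpt1* had 4 UMIs in 1 cell of the first control, 3 UMIs in 3 cells of the other and 0 UMIs in *Angpt1*ΔNC, which allows up to 3. *Wnt1* had 0 UMIs in all 3 libraries.

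T cells read antigen through a receptor built of a pair of variable chains, either alpha with beta or gamma with delta, held at the membrane by the CD3 chains. B cells use immunoglobulin with CD79 chains for the same task, and natural killer (NK) cells kill without a rearranged receptor. Lymphocytes that recirculate leave tissue and blood for lymph nodes under sphingosine 1-phosphate and CCR7 signals, whereas cells that stay in a tissue switch those genes off and carry receptors such as CXCR6. Limbus and conjunctiva are known to hold resident T cells of both receptor kinds.

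The CD3 genes carried the T cell call. *Cd3g* and *Cd3d*, which encode the CD3 gamma and delta chains, lie head to head on mouse chromosome 9, with *Cd3g* (ENSMUSG00000002033) at 44969572 to 44980431 on the minus strand and *Cd3d* (ENSMUSG00000032094) at 44981786 to 44987339 on the plus strand of GRCm38. *Cd3e* (ENSMUSG00000032093), for CD3 epsilon, follows at 44998740 to 45009627 on the minus strand. The first transcribed bases of *Cd3g* and *Cd3d* are 1355 bases apart. The 250 bases before each start are shown because this divergent pair gave most CD3 UMIs of the cluster (RefSeq, GRCm38.p6, 5′ to 3′ on the gene's own strand). Capitals mark CACCTG or its reverse complement CAGGTG, an E-box sequence, searched on both strands.
*Cd3g*, chr9:44980432-44980681, minus strand: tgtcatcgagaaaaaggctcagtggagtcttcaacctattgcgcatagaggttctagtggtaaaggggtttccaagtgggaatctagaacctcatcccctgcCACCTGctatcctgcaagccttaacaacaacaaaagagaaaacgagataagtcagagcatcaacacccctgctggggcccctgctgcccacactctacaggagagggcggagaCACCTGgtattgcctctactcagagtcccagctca
*Cd3d*, chr9:44981536-44981785, plus strand: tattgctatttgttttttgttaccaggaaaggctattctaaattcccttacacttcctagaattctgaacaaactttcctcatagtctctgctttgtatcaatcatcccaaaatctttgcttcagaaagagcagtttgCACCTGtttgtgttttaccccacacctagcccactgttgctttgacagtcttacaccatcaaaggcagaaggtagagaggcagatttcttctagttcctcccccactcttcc
The *Cd3g* window held 2 such matches and the *Cd3d* window 1. Of all 32851 promoter windows of this length, 17.2% held at least 1, so a match is a description and not a sign of use.

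Among the 161 cells with a CD3 UMI and no B cell gene UMI (the CD3 group), *Cd3g* was found in 132 cells, *Cd3d* in 130 and both in 106. *Cd3e* was found in 86 of the 161. The B group is the 98 cells with a UMI of any of 4 B cell genes, among them *Cd79a*, *Cd79b* and *Ms4a1*, and none of CD3. Cells that held both kinds of UMI numbered 3 of 327, or 0.917% (95% exact Clopper-Pearson interval 0.19 to 2.66%), 1 in control replicate 1 and 2 in control replicate 2. In the epithelium of clusters 4 and 5, which lacks CD3, *Cd3e* was found in 0 of 989, 0 of 1012 and 1 of 911 cells, at median depths of 17717, 15168.5 and 15135 UMIs against 2267, 2500 and 2531 UMIs in cluster 22. *Cd79a* was found in 4, 4 and 0 of those epithelial cells. Free RNA of these genes was thus rare in all 3 libraries.

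**Figure D1:**
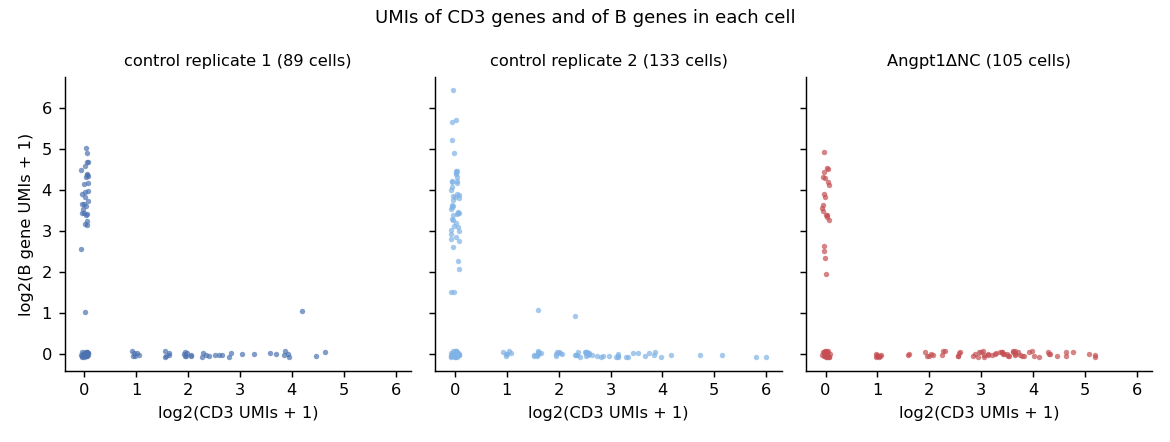
Summed UMIs of the 3 CD3 genes (x axis) and of the 4 B cell genes (y axis) in each cluster 22 cell, as log2 of the UMIs plus 1 with a small random offset, with 1 panel per library. Cells lie along one axis or the other, and 3 cells, all in the controls, hold both.

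Among genes found in at least 25% of its cells, the 10 with the highest mean fold over all other kept cells were *Igkc*, *Ccl5*, *Cd79a*, *Cd3g*, *Cxcr6*, *AW112010*, *Trbc2*, *Nkg7*, *Ms4a4b* and *Trbc1*. They define the cluster and are given without a test. *Cd79a* and *Cd3g* were themselves used to form the groups. *Igkc*, an immunoglobulin light chain that was not, was found in 95.9% of the B group against 3.11% of the CD3 group. *Trbc2*, the beta 2 constant region of the receptor, was found in 87% of the CD3 group, 1.02% of the B group and 27.7% of the cells with neither. *Ccl5* and *Nkg7*, a chemokine and a granule protein of killer lymphocytes, were found in 80% and 75.4% of the cells with neither CD3 nor B genes, against 19.3% and 21.1% of the CD3 group. Other leading genes were shared by the CD3 group and the cells with neither: *Ms4a4b* was found in 54.7% and 52.3% of them, *Trbc1* in 49.7% and 52.3%, and *AW112010* in 34.2% and 78.5%.

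**Figure D2:**
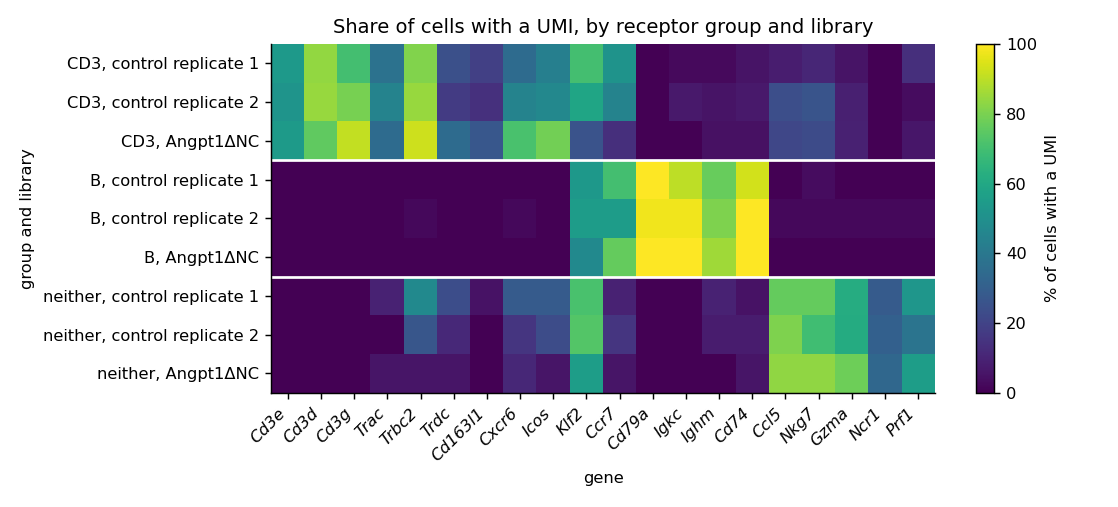
Percent of cells with at least 1 UMI of each gene (color), for the CD3 group, the B group and the cells with neither, with 1 row per group and library. *Trbc2* and *Klf2* span more than 1 group, and in the CD3 rows *Klf2* and *Ccr7* are lower, and *Cxcr6* and *Icos* higher, in *Angpt1*ΔNC than in either control.

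The cluster took 0.981% of kept cells in control replicate 1 (95% exact interval 0.788 to 1.21%), 1.31% in control replicate 2 (1.1 to 1.55%) and 1.55% in *Angpt1*ΔNC (1.27 to 1.87%). The *Angpt1*ΔNC value was above both controls, and its interval overlapped that of control replicate 2. The control mean was 1.15% ± 0.232 (SD, n = 2), and the difference was 0.406 percentage points. An exact permutation test of 2 libraries against 1 cannot give a two-sided p below 0.333, so no test of this share is reported. Intervals here cover counting error only. Cluster 22 cells were shallow, with 230846, 419302 and 347179 UMIs in all, and their medians of 2267, 2500 and 2531 UMIs stood against 6329.5, 6393.5 and 7444 over all kept cells.

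The balance of the 3 sets of cells also differed. CD3-positive cells were 42.7% of the cluster in control replicate 1 (32.3 to 53.6%), 45.1% in control replicate 2 (36.5 to 54%) and 62.9% in *Angpt1*ΔNC (52.9 to 72.1%). B group cells were 33.7% (24 to 44.5%), 35.3% (27.3 to 44.1%) and 20% (12.8 to 28.9%) in the same order. Cells with neither were 23.6%, 19.6% and 17.1%. The controls lay within 3 percentage points of each other for CD3 and for B cell genes, while *Angpt1*ΔNC was higher for CD3 and lower for B cell genes than both. Of the CD3-positive cells, as a share of all kept cells, the values were 0.419%, 0.591% and 0.975%. B group cells numbered 30 of 9076, 47 of 10160 and 21 of 6772 kept cells in the same order. Shares within the cluster depend on each other, so a higher CD3 share lowers the others. When each cell was thinned to 1000 UMIs, CD3-positive shares were 36%, 35.3% and 52.4%, in the same order.

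**Figure D3:**
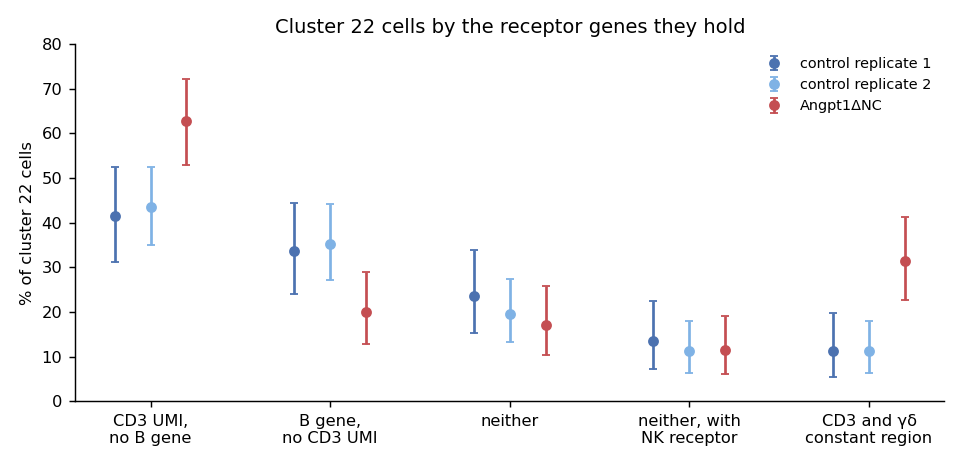
Percent of cluster 22 cells (y axis) in each receptor gene class (x axis), 1 point per library with its 95% exact Clopper-Pearson interval, which covers counting error only. *Angpt1*ΔNC is above both controls for cells with CD3 and no B cell gene and for CD3 cells with a gamma delta constant region, below both for B cell genes, and close to them for cells with NK receptor genes.

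Transcripts of both receptor kinds were found in CD3-positive cells. A constant region of the gamma or delta chain (*Trdc*, *Tcrg-C1*, *Tcrg-C2* or *Tcrg-C4*) was found in CD3-positive cells making up 11.2% of the cluster in control replicate 1 (5.52 to 19.7%), 11.3% in control replicate 2 (6.45 to 17.9%) and 31.4% in *Angpt1*ΔNC (22.7 to 41.2%). CD3-positive cells with only alpha or beta constant regions were 29.2%, 33.1% and 29.5% of the cluster. Thinned to 1000 UMIs per cell, the gamma delta shares were 8.99%, 8.27% and 19.1%, again with *Angpt1*ΔNC above both controls. Most gamma delta cells also held alpha or beta constant region UMIs: over the whole cluster 63 cells had both kinds and 6 had gamma delta UMIs only. A UMI of a constant region does not show a rearranged receptor, so these are counts of transcripts and not of receptor types.

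*Trdc* (ENSMUSG00000104876, chromosome 14, 54142851 to 54148868) encodes the delta constant region. It had 124 UMIs in 14 cells of control replicate 1, 85 UMIs in 13 cells of control replicate 2 and 242 UMIs in 24 cells of *Angpt1*ΔNC. As a mean over cells its level was 4.67, 2.73 and 8.41 UMIs per 10000. Its log2 fold change was 0.98 ± 0.33 (SE), with an adjusted p of 0.0614 in edgeR's quasi-likelihood test, which did not pass 0.05. *Cd163l1*, which encodes the scavenger receptor SCART1 of gamma delta T cells, had 25, 19 and 54 UMIs in 8, 8 and 18 cells. Of its cells, 33 were in the CD3 group and all 33 also held *Trdc*. Its log2 fold change of 1.14 ± 0.36 passed at an adjusted p of 0.0453 by edgeR. That call was lost in 8 of the other fits, among them the fit within the CD3 group (log2 fold change 0.6, adjusted p = 0.881 by edgeR).

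Variable segments were found largely in cells with *Trdc*. *Trdv4*, a delta variable segment, was found in 6, 8 and 11 cells, and 22 of these were CD3 group cells that held *Trdc*. *Tcrg-V6*, a gamma variable segment, was found in 1, 2 and 4 cells, and all 7 also held *Trdv4*. *Il17a*, the cytokine that such gamma delta cells make, had 8 UMIs in 3 cells, 22 in 2 cells and 24 in 7 cells, and all 12 cells were in the CD3 group. Of the 12 genes on the gamma delta type 17 list, 10 could be tested by edgeR: *Cd163l1* was higher, *Il17f* was lower and 8 did not pass, beside 2.62% of all tested genes called higher and 1.41% lower. DESeq2 called 0 of the 10, and *Il17f* turned to a log2 fold change of 0.97 without control replicate 2.

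The alpha and beta constant regions varied less. *Trbc2* had 177, 373 and 307 UMIs in 41, 58 and 62 cells, *Trbc1* 106, 189 and 187 UMIs in 35, 46 and 37 cells, and *Trac* 35, 67 and 49 UMIs in 16, 28 and 24 cells. In the CD3 group, 70 cells held both *Trbc1* and *Trbc2*, 70 held only *Trbc2* and 10 only *Trbc1*. Among the 65 cells without CD3 or B genes, 34 held *Trbc1* and 18 *Trbc2*, so the cut at 1 CD3 UMI did not take every cell with receptor transcripts. Of the 11 genes of the receptor complex, *Cd3e* alone passed: it had 29, 57 and 89 UMIs in 21, 31 and 36 cells, a log2 fold change of 0.98 ± 0.31 and an adjusted p of 0.0456 by edgeR. Within the CD3 group its log2 fold change was 0.56, with an adjusted p of 0.854 by edgeR. The list's median log2 fold change was 0.51 over the cluster and 0.08 within the CD3 group, beside medians of -0.02 over all genes in both fits.

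The coreceptors that split alpha beta T cells into helper and killer cells were sparse. *Cd4* was found in 3, 4 and 4 cells, and *Cd8a* or *Cd8b1* in 3, 8 and 9 cells. No cell held both kinds, which at 0 of 327 allows up to 1.12% (upper 95% exact limit), and 296 of 327 cells held neither. *Foxp3*, the factor of regulatory T cells, had 0 UMIs in control replicate 1, 9 UMIs in 4 cells of control replicate 2 and 3 UMIs in 1 cell of *Angpt1*ΔNC. At these depths helper, killer and regulatory T cells could not be counted.

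Of the 6 genes of recirculating lymphocytes reported, *Klf2*, *S1pr1* and *Ccr7* passed the test as lower in *Angpt1*ΔNC and none as higher, and *Lef1*, *Tcf7* and *Il7r* did not pass. *Il7r*, the interleukin 7 receptor, had 94, 107 and 172 UMIs and a log2 fold change of 0.63, in the other direction (adjusted p = 0.425, edgeR). In the whole cluster 1.41% of the 5185 tested genes were called lower and 4.03% were called in all. The median log2 fold change of the 6 was -1.30 beside -0.02 for all genes. Within the CD3 group *Klf2* and *Ccr7* passed as lower, where 0.293% of the 3751 tested genes were called lower, 0.773% higher and 1.07% in all. Without the cells that hold B genes, 4 of the 6 passed as lower, where 0.944% of 4450 tested genes were called lower, 1.82% higher and 2.76% in all. DESeq2, a second count test, called none of the 6 genes after adjustment, and 3 of them had an unadjusted p under 0.05 there.

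*Klf2* (ENSMUSG00000055148, chromosome 8, 72319033 to 72321656), a transcription factor of quiescent and circulating lymphocytes, had 263 UMIs in 57 cells of control replicate 1, 364 in 81 cells of control replicate 2 and 114 in 37 cells of *Angpt1*ΔNC. Its mean level was 13.3, 10.3 and 4.6 UMIs per 10000, so *Angpt1*ΔNC was below both controls. It fell by 1.58 ± 0.37 on the log2 scale (adjusted p = 0.000908, edgeR). In the CD3 group the level was 17.2, 10.8 and 3.16 UMIs per 10000, and it fell by 2.32 ± 0.45 on the log2 scale (adjusted p = 0.023, edgeR). In cells with neither CD3 nor B genes it was 12.3, 13.9 and 11.6 UMIs per 10000, so all 3 libraries lay close together there.

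*S1pr1* (ENSMUSG00000045092, chromosome 3, 115710433 to 115715072), the sphingosine 1-phosphate receptor that lets lymphocytes leave tissue, had 51 UMIs in 31 cells, 67 in 38 cells and 20 in 13 cells. It fell by 1.67 ± 0.38 on the log2 scale (adjusted p = 0.000659, edgeR). In the CD3 group it was found in 19 of 37, 18 of 58 and 8 of 66 cells, and its log2 fold change of -1.88 did not pass there (adjusted p = 0.267, edgeR).

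*Ccr7* (ENSMUSG00000037944, chromosome 11, 99144196 to 99155077), the receptor for the lymph node chemokines CCL19 and CCL21, had 152 UMIs in 42 cells, 221 in 58 cells and 80 in 26 cells. It fell by 1.33 ± 0.36 on the log2 scale (adjusted p = 0.0088, edgeR). In clusters 23 to 25, which hold myeloid leukocytes, its level went the other way, at 0.86, 0.753 and 1.73 UMIs per 10000. Differences of effect were called for 0.945% of tested genes against clusters 23 to 25 (0.733% higher and 0.212% lower in cluster 22) and for 2.3% against all other kept cells (1.93% and 0.366%). The difference between the cluster 22 effect and the effect in clusters 23 to 25 was itself tested and was -2.63 ± 0.31 (adjusted p = 0.000609, edgeR). Against all other kept cells it was -2.56 ± 0.41 (adjusted p = 0.000215, edgeR). *Klf2* differed from all other kept cells by -1.12 ± 0.3 (adjusted p = 0.0398, edgeR) and from clusters 23 to 25 by -0.98, which did not pass (adjusted p = 0.306, edgeR).

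These 3 genes were spread over many cells: the cell with the most UMIs held 3.03% of the control UMIs of *Klf2*, 4.24% of *S1pr1* and 8.04% of *Ccr7*. With either control left out, which leaves no test, all 3 stayed lower. With each cell thinned to 1000 UMIs, *S1pr1* and *Ccr7* no longer passed (adjusted p = 0.3 and 0.0591, edgeR). The libraries also differed in sex: no cluster 22 cell of the controls held an *Xist* UMI, whereas 45 *Angpt1*ΔNC cells did. Within male-typed cells, which hold a Y-linked UMI and no *Xist* (46, 72 and 27 cells), the log2 fold changes were -0.94 for *Klf2*, -2.16 for *S1pr1* and -1.36 for *Ccr7*, and none passed. Whether the sex of the cells had a part in these differences was not tested beyond that. Over the whole cluster, *Klf2* had an adjusted p of 0.113 by DESeq2.

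The split by receptor constant region showed which T cells held these genes. In CD3 group cells without a gamma delta UMI (28, 43 and 33 cells), *Klf2* was found in 89.3%, 72.1% and 39.4% of cells and *Ccr7* in 67.9%, 55.8% and 24.2%. In CD3 group cells with a gamma delta UMI (9, 15 and 33 cells), *Klf2* was found in 11.1%, 20% and 12.1% and *Ccr7* in 0%, 13.3% and 3.03%. Cells with gamma delta UMIs thus held few of these transcripts in every library, and the remaining CD3 cells held fewer in *Angpt1*ΔNC than in either control.

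**Figure D4:**
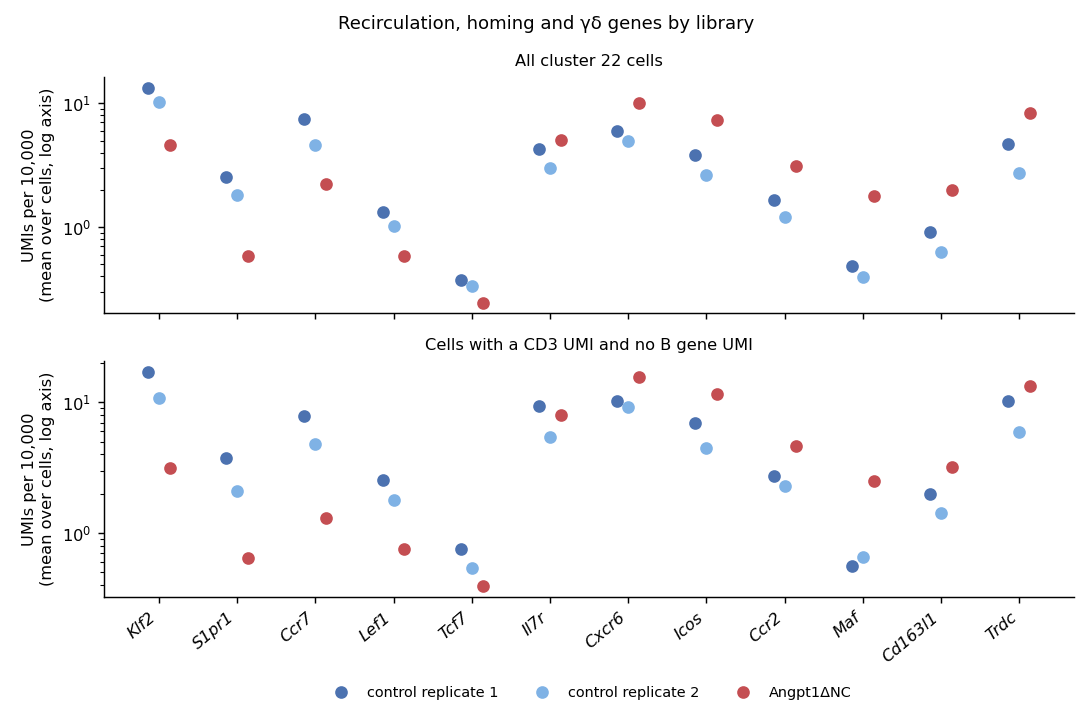
Level of each gene as mean UMIs per 10000 (log axis) in all cluster 22 cells (top) and in the CD3 group (bottom), 1 point per library. *Klf2*, *S1pr1* and *Ccr7* are lowest in *Angpt1*ΔNC in both panels, and *Cxcr6*, *Icos*, *Ccr2* and *Maf* are highest there.

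*Cxcr6* was found mostly in cells without *S1pr1* or *Klf2*. *Cxcr6* (ENSMUSG00000048521, chromosome 9, 123806475 to 123811760), a receptor of resident T cells, was found in 86 cells of the CD3 group, of which 11 also held *S1pr1* and 14 also held *Klf2*. Among CD3 group cells without *Cxcr6*, 34 held *S1pr1* and 41 did not, and 63 held *Klf2* and 12 did not. *Cxcr6* had 140 UMIs in 20 cells, 204 in 31 cells and 341 in 49 cells, which is 5.94, 4.94 and 10 UMIs per 10000. *Angpt1*ΔNC was above both controls, but the log2 fold change of 0.88 ± 0.33 did not pass (adjusted p = 0.127, edgeR). *Cxcl16*, which encodes its ligand, was highest in cluster 24, at 10.9, 11.2 and 11.3 UMIs per 10000. *Rgs1*, a regulator of chemokine signals, had 409, 389 and 620 UMIs in 45, 62 and 66 cells, and it was found in 53.6%, 65.1% and 60.6% of the CD3 group cells without a gamma delta UMI. *Itgae*, *Itga1* and *P2rx7*, other resident cell genes, had at most 4 UMIs in any library, and *Zfp683* had 0. *Cd69*, also counted as a resident cell gene, was found in 29 of 161 CD3 group cells and in 48 of 98 B group cells. Of the 4 testable genes among 8 on the residency list, 0 passed in edgeR and 0 in DESeq2, and 1 had an unadjusted p under 0.05 in each.

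*Icos* (ENSMUSG00000026009, chromosome 1, 60977927 to 61000320), a costimulatory receptor of activated T cells, had 97 UMIs in 23 cells, 130 in 33 cells and 275 in 53 cells. Its log2 fold change was 1.15 ± 0.33 (adjusted p = 0.014, edgeR), so it rose. *Ccr2* (chromosome 9, 124101950 to 124113557), the receptor for CCL2, had 39, 41 and 114 UMIs in 17, 22 and 41 cells and rose by 1.37 ± 0.32 on the log2 scale (adjusted p = 0.000882, edgeR). *Maf*, a transcription factor of interleukin 17 and interleukin 10 producing T cells, had 10, 21 and 67 UMIs in 9, 14 and 31 cells and rose by 2.03 ± 0.37 (adjusted p = 5.56e-06, edgeR). *S100a4*, a calcium-binding protein of motile cells, had 63, 138 and 369 UMIs in 17, 27 and 58 cells and rose by 1.83 ± 0.33 (adjusted p = 3.3e-06, edgeR). *S100a4* alone of these also passed in DESeq2 (adjusted p = 0.045). Within the CD3 group none of the 4 passed: the log2 fold changes were 0.94 for *Icos*, 1.1 for *Ccr2*, 1.87 for *Maf* and 1.48 for *S100a4*, with adjusted p-values of 0.42, 0.464, 0.114 and 0.102 by edgeR. The share of CD3 cells was also larger in *Angpt1*ΔNC, and whether it had a part in the rise of these genes over the cluster was not tested.

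In cells with gamma delta UMIs, *Cxcr6* was found in 88.9%, 80% and 93.9% of cells and *Ccr2* in 88.9%, 66.7% and 72.7%. In the other CD3 cells *Cxcr6* was found in 17.9%, 32.6% and 48.5%, *Icos* in 35.7%, 44.2% and 69.7%, and *Ccr2* in 10.7%, 16.3% and 39.4%. In the latter cells all 3 genes were most frequent in *Angpt1*ΔNC. In cells with gamma delta UMIs, *Cxcr6* and *Icos* (66.7%, 53.3% and 87.9%) were also most frequent there, while *Ccr2* was not.

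A few interferon-response and class I genes passed the test. *Gbp2*, an interferon-induced GTPase, had 24, 51 and 9 UMIs in 9, 24 and 6 cells and fell by 2.11 ± 0.48 on the log2 scale (adjusted p = 0.000662, edgeR). *Irf1*, an interferon-induced transcription factor, had 39, 46 and 14 UMIs in 24, 31 and 12 cells and fell by 1.72 ± 0.43 (adjusted p = 0.00302, edgeR). *Psmb9*, an immunoproteasome subunit, had 24, 52 and 12 UMIs in 15, 31 and 9 cells and fell by 1.71 ± 0.45 (adjusted p = 0.00592, edgeR). On the interferon list 2 of 14 tested genes were lower and 0 higher by edgeR, beside 1.41% of all tested genes called lower, with a median log2 fold change of -0.31. DESeq2 called 0 of the 14. *Gbp2* also passed within the CD3 group, with a fall of 2.69 ± 0.59 (adjusted p = 0.0429, edgeR). It was the only 1 of 14 tested interferon genes called there. Of 13 tested class I list genes, *Psmb9* among them, 0 were called lower in that group, so *Irf1* and *Psmb9* did not pass there.

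*H2-Q7* (ENSMUSG00000060550, chromosome 17, 35439155 to 35443773), a nonclassical class I gene with close copies in its family, had 43 UMIs in 31 cells, 32 in 26 cells and 165 in 65 cells. It rose by 1.95 ± 0.32 on the log2 scale (adjusted p = 2.85e-07, edgeR), also within the CD3 group, by 2.11 ± 0.46 (adjusted p = 0.0429, edgeR). Counts of such copies are uncertain, because reads can be shared with near-identical genes. In the epithelium of clusters 4 and 5 it went the opposite way, with 217, 180 and 30 positive cells, and the difference in effect from all other kept cells was 2.85 ± 0.42 (adjusted p = 5.4e-05, edgeR). The class I genes *H2-D1*, *H2-K1* and *B2m* did not pass.

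Immediate early and heat shock genes, which dissociation induces, gave no call. Of 15 tested genes on that list 0 passed in edgeR and 0 in DESeq2, with 4 and 0 at an unadjusted p under 0.05 and a median log2 fold change of -0.17. The 7 tested NF-kB feedback genes also gave 0 calls in edgeR and DESeq2, with 1 and 0 at an unadjusted p under 0.05 and a median of -0.14. Across all tested genes 642 had an unadjusted p under 0.05 by edgeR and 101 by DESeq2.

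The B group held the receptor genes of mature B cells. *Cd79a* (ENSMUSG00000003379, chromosome 7, 24897381 to 24902197) had 293 UMIs in 30 cells, 439 in 47 cells and 162 in 21 cells, and it fell by 1.28 ± 0.36 on the log2 scale over the cluster (adjusted p = 0.0118, edgeR). Of 11 tested B cell genes 7 were lower and 0 higher by edgeR, beside 1.41% of all tested genes called lower. DESeq2 called 0 of the 11. Their median log2 fold change was -1.28, beside a smaller B group share of the cluster in *Angpt1*ΔNC. *Cd79a* itself helps define that group. *Jchain*, *Mzb1* and *Igkc*, among the lower genes, drew most of their control UMIs from the 1 cell described below. *Ighm*, the IgM heavy chain, was found in 79 of 98 B group cells and *Ighd*, the IgD chain, in 58, with both in 51. Kappa light chain UMIs (*Igkc*) outnumbered lambda UMIs in 83 cells and lambda outnumbered kappa in 8. *Cd74*, the class II invariant chain, was found in 96 of 98. In the B group, *Klf2* was at 9.77, 7.21 and 3.18 UMIs per 10000 and *Cd69* at 4.99, 6.12 and 4.8, and *Klf2* did not pass there (log2 fold change -1.58, adjusted p = 0.248, edgeR).

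A single cell of control replicate 1 stood apart in its antibody genes. It held 13319 UMIs, the most of any cell of that library's cluster, with 391 UMIs of *Jchain*, 330 of *Igha*, 65 of *Ighg2b*, 127 of *Mzb1* and 2380 of *Igkc*. *Jchain*, which joins IgA or IgM units, had no other UMI in the controls and 1 in *Angpt1*ΔNC. That cell gave 63.5% of the control UMIs of *Igkc* and 66.1% of *Mzb1*. *Igkc* had 2847, 903 and 431 UMIs in 28, 50 and 21 cells, and *Mzb1*, a chaperone of antibody secretion, had 140, 52 and 17 UMIs in 9, 18 and 8 cells. Both passed as lower in *Angpt1*ΔNC (log2 fold changes -2.48 ± 0.37 and -2.79 ± 0.41).

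The 65 cells with neither CD3 nor B genes mostly held genes of killer lymphocytes. *Ccl5* was found in 52 of them, *Nkg7* in 49, *Gzma* (granzyme A) in 43 and *Prf1* (perforin) in 31. An NK receptor gene (*Ncr1*, *Klrb1c*, *Klre1*, *Klra4*, *Klra8* or *Klra7*) was found in 39 of them, or 13.5%, 11.3% and 11.4% of the cluster in the 3 libraries. *Ncr1*, the NK activating receptor NKp46, was found in 20 of these cells and in 0 of the CD3 group. *Gzma* had 334 UMIs in 15 cells, 385 in 22 cells and 367 in 20 cells, and 0 of 9 tested cytotoxic genes and 0 of 6 tested NK genes passed in edgeR or DESeq2. At an unadjusted p under 0.05 there were 2 of each by edgeR and 0 by DESeq2.

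Cytokines came from few cells. *Il22*, a cytokine that acts on epithelium, had 0 UMIs in both controls and 40 UMIs in 3 cells of *Angpt1*ΔNC, of which 1 cell held 38. Against a floor of 3 counts over the controls the UMI ratio was at least 25, with most UMIs from that 1 cell. Such a bound covers the counting of UMIs only and not the spread between cells. *Il13* had 31 UMIs in 1 cell of control replicate 1 and 0 elsewhere. The UMI ratio was at least 5.52 by the same floor, with the same limit. *Il17f* had 0, 60 and 2 UMIs in 0, 4 and 2 cells, and *Il5* 7, 77 and 49 UMIs in 1, 2 and 2 cells. *Ifng* had 8, 5 and 2 UMIs in 4, 4 and 2 cells. *Il22* (higher), *Il13* and *Il17f* (lower) passed the test over summed cells, yet each rested on at most 4 cells of a library. *Il17f* in *Angpt1*ΔNC lay between the controls, and its log2 fold change was 0.97 without control replicate 2. *Calca*, a neuropeptide precursor, was more widespread, with 32, 84 and 78 UMIs in 7, 9 and 13 cells, 26 of them in the CD3 group, and it did not pass.

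Over all genes, 209 of 5185 passed, 136 higher and 73 lower in *Angpt1*ΔNC. Of the higher genes, 45 drew at least 50% of their *Angpt1*ΔNC UMIs from 1 cell, and 27 were found in at most 5 cells. Of the lower genes, 14 drew at least 50% of their control UMIs from 1 cell, and the median share of the top cell was 8.33% against 34.3% for the higher genes. The test treats summed cells as 1 sample, so 1 cell rich in a gene can carry a call.

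**Figure D5:**
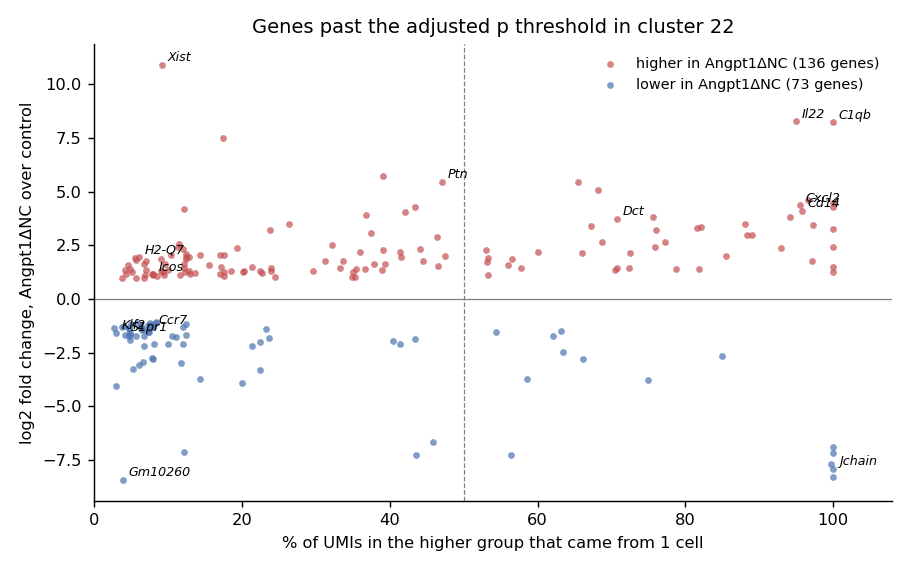
Log2 fold change of each of the 209 genes that passed (y axis) against the percent of its UMIs in the higher group that 1 cell gave (x axis), with the dashed line at 50%. *Klf2*, *S1pr1*, *Ccr7*, *Icos* and *H2-Q7* lie at the left, and *Il22*, *C1qb*, *Cxcl2*, *Cd14* and *Jchain* lie near 100%.

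The 12 genes with the smallest adjusted p-values among the higher calls were *Xist*, *Ptn*, *Cxcl2*, *Dct*, *Cxcl12*, *Pmel*, *Gm13889*, *Tyrp1*, *Il22*, *C1qb*, *Cd14* and *Nupr1*. Several mark other cells of the eye. *Dct*, *Pmel* and *Tyrp1*, enzymes and structural proteins of pigment cells, had 243, 137 and 69 UMIs in *Angpt1*ΔNC against 36, 33 and 9 over both controls. A single *Angpt1*ΔNC cell with 12755 UMIs in all gave 412 of the 509 UMIs of *Dct*, *Pmel*, *Tyrp1* and *Mlana* there. *C1qb*, a macrophage complement gene, had 39 UMIs in 1 cell and 0 in the controls. The UMI ratio was at least 24.3 by the same floor, which does not cover the spread between cells. *Cd14* had 48 UMIs in 3 cells, 46 of them in 1 cell, and *Cxcl2*, a neutrophil chemokine, 134 in 4 cells, 128 of them in 1 cell. The *Angpt1*ΔNC cells richest in C1q genes and in *Cxcl2* both had 11260 UMIs in all. These, the pigment-rich cell above and the cell richest in stromal genes (7510 UMIs in all) lay in the CD3 group. Fits within that group therefore kept them. *Ptn*, a secreted growth factor, had 121 UMIs in 9 cells and *Cxcl12*, a stromal chemokine, 64 in 6 cells.

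Some marker lists of other cells were higher in *Angpt1*ΔNC. Their part in the other calls was not tested beyond the fit without cells rich in pigment or stromal UMIs. No fit left out cells by their macrophage UMIs. All 4 tested pigment genes were higher, 4 of 6 macrophage genes and 3 of 4 stromal genes, with 0 lower in each, against 2.62% of all tested genes called higher. In *Angpt1*ΔNC the richest cell for each list gave 80.8% of the pigment and ciliary UMIs, 82% of the macrophage UMIs and 42.1% of the stromal UMIs. Cells with a UMI of the macrophage list were 29.2%, 31.6% and 30.5% of the cluster, and of the pigment and ciliary list 29.2%, 37.6% and 26.7%. For both of these lists *Angpt1*ΔNC was below control replicate 2. Cells with a UMI of the stromal list were 22.5%, 29.3% and 31.4%, with *Angpt1*ΔNC the highest. Of 5 dendritic cell genes 2 were lower and 0 higher, beside 1.41% of all tested genes called lower. The 2 were *Ccr7* and *Cd74*, which are also genes of the B group, with *Ccr7* in 63 of its 98 cells. Of 4 endothelial and mural genes 1 was higher and 1 lower. Summed pigment and ciliary list levels were 1.37, 2.11 and 5.22 UMIs per 10000 and stromal list levels 2.25, 4.17 and 9.28. Cells with 5 or more UMIs of the stromal list numbered 1, 3 and 6, of the pigment and ciliary list 0, 1 and 3, and of the macrophage list 0, 4 and 1. Surface epithelial genes did not follow, at 1.62, 1.2 and 1.5 UMIs per 10000 with 0 of 3 tested genes called, or at an unadjusted p under 0.05, in edgeR and DESeq2. When cells with at least 5 UMIs of 4 pigment genes or of 4 stromal genes were left out, 137 genes passed, 105 of them among the 209, and *Klf2* and *S1pr1* stayed lower with adjusted p-values of 0.0141 and 0.0098 by edgeR, while *Ccr7* was at 0.0977.

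The 12 lower genes by the same rule were *Gm10260*, *Gm11361*, *Mzb1*, *Igkc*, *Tnfsf8*, *Fcrla*, *Rgs5*, *Myoc*, *Trib2*, *Iglc3*, *Hist1h1e* and *Cenps*. *Tnfsf8*, the CD30 ligand of activated T cells, had 9, 56 and 2 UMIs in 6, 12 and 2 cells. The ratio between control and *Angpt1*ΔNC was 17.4, with an interval of 4.62 to 146 that covers the counting of UMIs only. *Trib2*, a pseudokinase, had 24, 42 and 4 UMIs in 14, 25 and 2 cells and fell by 3.09 ± 0.58 on the log2 scale (adjusted p = 1.14e-05, edgeR). Both also passed as lower within the CD3 group. *Fcrla*, a B cell Fc receptor-like protein, had 30, 46 and 5 UMIs in 14, 25 and 3 cells. *Rgs5* and *Myoc*, genes of mural and trabecular cells, had 39 UMIs each in the controls and 0 in *Angpt1*ΔNC, in 9 and 6 cells.

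Some calls were also seen in other cells of the libraries. *Gm10260*, a predicted gene, had 224, 547 and 1 UMIs in 72, 118 and 1 cells, and in the epithelium it was found in 983 of 989, 1010 of 1012 and 48 of 911 cells. *Rpl29*, a ribosomal protein gene, had 39, 111 and 286 UMIs and rose by 1.91 ± 0.32 (adjusted p = 5.78e-07, edgeR). Their effects in cluster 22 did not differ past the threshold from those in all other kept cells (adjusted p = 0.956 and 0.931, edgeR). On simulated data that test recovered 41.1% of changes of 2 and 2.15% of changes of 1 on the log2 scale. For *Rpl29* it therefore cannot show that the rise was shared. *Xist* had 0, 0 and 250 UMIs, at least 156-fold higher against a floor of 3 counts over the controls, and *Eif2s3y*, a Y-linked gene, had 45, 61 and 23 UMIs. The sex of the pooled cells and the genotype therefore cannot be told apart in the whole-cluster test.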

How the data were processed

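Droplet single-cell libraries of 2 control pools and 1 *Angpt1*ΔNC pool were measured. The deposited matrices held raw UMI counts, which the authors made with Cell Ranger (2.1.1 in the submitters' processing notes, 3.0.2 in the matrix header, build mm10) and clustered with Seurat 3.1.3 after removing doublets. The authors kept cells with at least 1000 UMIs. Their cluster numbers were taken from the deposited cell tables, and no further doublet call was made.

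Counts of cluster 22 were summed per library and tested with edgeR 4.0.16 (R 4.3.3; TMM scaling, filterByExpr, quasi-likelihood test, Benjamini-Hochberg adjusted p under 0.05). With 1 residual degree of freedom the prior degrees of freedom were infinite, so each gene's spread came from the trend over genes and p-values lean on it. Differences between cell groups were interaction terms with library as a block. DESeq2 1.42.0 was an alternative, beside other scaling, no filter, equal cell numbers, thinning to 1000 UMIs and subsets of cells. Levels are UMIs per 10000, averaged over a library's cells. Intervals of shares are 95% Clopper-Pearson.

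On simulated data for the genotype comparison (5185 genes), 55.3% of genes changed by 2 on the log2 scale and 5.66% of those changed by 1 were recovered, with 6.45% false calls. The simulated counts had the same trended spread that the test assumes and no cells rich in a gene. That false rate therefore cannot be carried over to the calls made here. The replicate is the library, each from 1 pool of eyes, and only the 2 controls gave a spread between pools. The p-values rest on the trend of that spread over genes. No spread between *Angpt1*ΔNC pools was measured.

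The members and lists were chosen with earlier results of these data known. Named genes were the 10 leading genes, list members that passed or had the highest level, the 12 smallest adjusted p-values in each direction with a log2 change of at least 1 and outside both controls, sex-linked genes, *Angpt1* and *Wnt1*, and up to 10 genes per interaction test. A member of the recirculation list and 1 of the B cell genes that define the B group are not reported here. Promoter sequences came from RefSeq and positions from GENCODE annotation.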

Additional observations from a re-analysis of the deposited data

Results flagged for a closer look

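The genotype difference in cluster 22 differed from that in clusters 23 to 25 for 49 genes, and from that in all other kept cells for 119 genes, by edgeR's interaction test. Values here are differences of log2 fold changes, cluster 22 minus the other cells. Against clusters 23 to 25, the 10 genes with the smallest adjusted p-values were *Cd14* at 4.4, *C1qb* at 10.23, *Cxcl2* at 4.05, *Pmel* at 3.10, *Cxcl1* at 3.30, *Dct* at 3.69, *Ccr7* at -2.63, *C1qc* at 9.30, *C1qa* at 4.95 and *Nupr1* at 3.69. Against all other kept cells they were *Cxcl2* at 4.17, *Pmel* at 3.44, *Dct* at 3.56, *Tyrp1* at 4.11, *Tagln* at 3.86, *Cxcl1* at 3.67, *Cd14* at 4.68, *C1qb* at 14.63, *Ptn* at 3.64 and *Ptgds* at 2.35.

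Several of these rested on single *Angpt1*ΔNC cells, which gave 95.8% of the UMIs of *Cd14*, 95.5% of *Cxcl2*, 89.1% of *Pmel*, 70.8% of *Dct* and all of *C1qb*. *C1qb* and *C1qc* had 0 UMIs in the control cells of cluster 22, so their fitted values depend on the prior count and are no bound. *Ccr7*, in contrast, was spread over 100 control cells, of which the richest gave 8.04% of its UMIs.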

How the results depend on the processing

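The 209 calls of the genotype comparison became 10 with DESeq2, 115 with RLE scaling, 56 with thinned cells, 40 in the CD3 group and 32 in male-typed cells, and in subsets chosen after seeing the data 14 in the B group, 60 in cells with neither, 123 without B group cells and 137 without cells rich in pigment or stromal UMIs. No filter gave 200 and equal cell numbers 180. All 115 RLE calls and all 10 DESeq2 calls were among the 209. The 49 differences from clusters 23 to 25 became 17 without the library block and 14 with DESeq2. The 119 from all other kept cells became 12 without the block and 33 with DESeq2, and 171 with RLE scaling. Fewer cells or fewer genes entered the subset fits, and the cause of the other differences was not tested.

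The share was 12.2%, 13.1% and 16.2% of leukocyte clusters 22 to 25 in control replicate 1, control replicate 2 and *Angpt1*ΔNC. Cells of any label with 2 or more of 5 T cell genes were 0.452%, 0.630% and 1.03% of kept cells, and cluster 22 cells with a CD3 UMI 0.419%, 0.591% and 0.975%. After thinning, CD3-positive cells were 35.3% (control replicate 2) and 52.4% (*Angpt1*ΔNC), cells with neither 30.8% and 28.6%, and any gamma delta cells 11.2% (control replicate 1) and 21.9% (*Angpt1*ΔNC). The share difference was 0.242 to 0.570 percentage points with 1 control left out.

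Log2 fold changes turned sign for *Dct* (-0.74) and *Pmel* (-0.33) without cells rich in pigment or stromal UMIs. In cells with neither they turned for *Icos* (-2.42), *Ccr2* (-0.075), *Il7r* (-3.47) and *Cxcr6* (-1.67). *Cd74* turned to 1.61 in the CD3 group, 0.71 in cells with neither and 1.23 without B group cells. With a control left out, *Il17f* was -3.69 (replicate 1) and 0.97 (replicate 2), *Il13* 0 and -4.48, and *Jchain* 0.57 and -7.51. Of the 209 genes, 204 kept their direction without control replicate 1 and 207 without control replicate 2, where 1 library against 1 allows no count of calls. Among called genes named by the rule, 21 fold changes moved by more than the spread without control replicate 1 and 20 without control replicate 2, while 29 and 31 did not. No paired analysis was possible because the replicate numbers are accession order only and *Angpt1*ΔNC has 1 library, while the block above is the library.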

Other observations

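In 1 cell of control replicate 1 and 1 cell of *Angpt1*ΔNC, the mast cell tryptase genes *Tpsb2* and *Tpsab1* had 65 and 102 UMIs, and no other cell of cluster 22 held any. Outside cluster 22, 16 kept cells held at least 2 of 5 T cell genes, beside 159 inside it. *Ccl21a*, which encodes a ligand of CCR7, was highest in the lymphatic endothelium, at 460, 265 and 225 UMIs per 10000 in control replicate 1, control replicate 2 and *Angpt1*ΔNC.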
